A study of Homo sapiens with 24 samples.

Results

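The genes that write and erase methyl groups on histone lysines were followed in breast cancer cells whose methionine (Met) was replaced by its precursor homocysteine (Hcy). The members were taken by gene symbol from the deposited count table: the KMT, KDM, SETD, NSD and SUV39H families, with SETDB1, SETDB2, EZH1, EZH2, EHMT1, EHMT2, DOT1L, ASH1L, SMYD2, SMYD3 and SMYD5. This gave 49 of the 26645 gene entries, namely 31 writers (methyltransferases and their close relatives), 16 erasers (demethylases) and 2 antisense RNAs, KDM4A-AS1 and KMT2E-AS1, whose symbols match. The rule left out KDM5C, KDM5D and KDM6A. NSD2 and NSD3 stand in the table under their older symbols WHSC1 and WHSC1L1, so the rule did not take them. Of the 49, 48 passed the filter on low counts, and the eraser KDM4E had 0 counts in all 24 libraries.

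The groups differ in cell line and in time. MB468 (MDA-MB-468) is a triple-negative breast cancer line that needs Met, and MB468res-R8 (R8) is 1 resistant clone derived from it that grows with Hcy in place of Met, so what is particular to the clone and what goes with growth on Hcy cannot be told apart. Cells of both lines were collected from Met+ medium (100 µM Met, called 0 h) and after 0.5, 2 or 12 h in Met-Hcy+ medium, in which 370 µM Hcy took the place of Met. There were 3 libraries in each of the 8 groups, and both media shared the same dialyzed serum, vitamin B12, glutamine and cysteine. Met+ libraries exist for 0 h only, so the time since fresh medium was added and the loss of Met cannot be told apart. The labels do not say whether the libraries of a group came from separate experiments, and p-values measure the spread between these libraries.

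Histone methyltransferases take their methyl group from S-adenosylmethionine, which cells make from Met, and place it on particular lysines of histones H3 and H4. Methylation of H3K4 is known from promoters and enhancers, that of H3K36 and H3K79 from transcribed gene bodies, that of H3K9 and H4K20 from heterochromatin, and that of H3K27 from genes silenced by Polycomb. Erasers remove these groups: the flavin enzymes KDM1A and KDM1B oxidise them, and the Jumonji (JmjC) enzymes use iron, oxygen and 2-oxoglutarate.

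Library depth ranged from 11713037 to 36402932 counts on genes (median 20452797), with 0.201 to 0.303% of counts on the 92 spike-in RNAs. Epithelial genes were abundant in all libraries (EPCAM 6506 to 9938 and EGFR 47810 to 97320 normalized counts). Of the receptor genes, PGR lay between 0 and 2.24, ESR1 between 94.5 and 513 and ERBB2 between 872 and 2214. The leukocyte genes PTPRC and CD3E reached at most 4.53 and 1.89. Of the endothelial, fibroblast and pericyte genes, COL1A1 lay between 331 and 1665. The others reached at most 60.8 (PECAM1), 35.6 (VWF), 1.40 (COL1A2), 14.9 (PDGFRB) and 99.6 (ACTA2). Replicate 2 of MB468 at 2 h had 8251 raw counts of the small nuclear RNA RN7SK, against at most 357 in any other library, so the 2 h counts are also given without it. Normalized counts are counts scaled to a common library size with edgeR's TMM factors, which take most genes as unchanged. Scaled on the spike-ins instead, the median over the 14741 genes tested, as a log2 fold change, shifted to between −0.415 and 0.377, depending on the comparison. The member counts that this moved are given both ways, and counts of genes outside the members are on TMM scaling only. In bulk RNA, fewer cells that express a gene and less RNA per cell cannot be told apart.

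Nearly all members were expressed. Per kilobase of exon, the mean level over the 24 libraries had a median of 156 normalized counts for the writers (range 2.56 to 444) and of 124 for the erasers that passed the filter (range 14.6 to 477). KDM4A, which removes methyl groups from H3K9 and H3K36, had the highest mean level per kilobase (477), followed by SETD3, a SET enzyme known to methylate actin (444), the H3K36 demethylase KDM2A (412) and the H3K9 demethylase KDM3B (365). This order differed between groups: at 12 h the level per kilobase of KDM4A was 832 ± 12.6 (SD, n = 3) in MB468 and 377 ± 5.45 in R8, and that of SETD3 was 497 ± 16.8 and 487 ± 14.2. Among the expressed erasers, KDM4D (14.6), KDM8 (17.9) and KDM4C (39.4) had the lowest mean levels per kilobase. The length used joins all annotated exons of a gene, so these levels and their order depend on the annotation. KDM1A, with 18325 exonic bases, had a mean of 4423 normalized counts in MB468 at 0 h, or 241 per kilobase. KDM4A, with 5184 exonic bases, had 2271 there, or 438 per kilobase.

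EHMT2 (G9a), an H3K9 methyltransferase, had too few counts to be followed. Its raw count was at most 26 in 22 libraries, and it was 145 in replicate 2 of MB468 at 0.5 h and 108 in replicate 1 of MB468 at 2 h. Other genes of the same region of chromosome 6, chosen after their values were seen, were also low in most libraries: the median normalized count was 26.96 for BAG6 (highest 929), 6.49 for CSNK2B (highest 670) and 0 for DDX39B (highest 1.34). Its one call, with a log2 fold change of 3.17 at 0.5 h in MB468 (adjusted p = 0.0495 by the quasi-likelihood test of edgeR), went to 0.59 without the library with 145 counts and was no longer called, and the call was also lost without any 1 library of MB468 at 0 h (3.08 to 3.22). The level of EHMT2 in these cells is therefore not read from these counts.

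Because 4 members with different time courses are described in most detail, the 250 bases before their RefSeq start sites are shown here, on GRCh38.p14. Gene positions given further on are those of GENCODE release 44, whose starts for KMT5C and NSD1 lie some bases from the RefSeq ones. SETD2 and NSD1 are H3K36 writers, KDM4D an H3K9 eraser and KMT5C an H4K20 writer. Each run reads 5′ to 3′ on the gene's strand. Capitals mark the GC box GGGCGG, the CCAAT box CCAAT and the E-box CACGTG on either strand.
SETD2 (chr3:47164114-47164363, minus strand): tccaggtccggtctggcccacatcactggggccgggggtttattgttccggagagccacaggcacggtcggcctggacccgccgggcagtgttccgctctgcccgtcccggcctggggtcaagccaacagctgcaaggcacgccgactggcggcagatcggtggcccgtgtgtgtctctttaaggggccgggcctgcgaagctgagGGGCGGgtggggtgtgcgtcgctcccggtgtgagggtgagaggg
NSD1 (chr5:177131548-177131797, plus strand): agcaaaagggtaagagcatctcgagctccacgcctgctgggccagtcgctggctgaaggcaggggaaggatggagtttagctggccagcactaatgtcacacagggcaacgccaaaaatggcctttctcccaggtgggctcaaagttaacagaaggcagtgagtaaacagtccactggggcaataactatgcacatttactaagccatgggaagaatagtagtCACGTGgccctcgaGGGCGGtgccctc
KDM4D (chr11:94973459-94973708, plus strand): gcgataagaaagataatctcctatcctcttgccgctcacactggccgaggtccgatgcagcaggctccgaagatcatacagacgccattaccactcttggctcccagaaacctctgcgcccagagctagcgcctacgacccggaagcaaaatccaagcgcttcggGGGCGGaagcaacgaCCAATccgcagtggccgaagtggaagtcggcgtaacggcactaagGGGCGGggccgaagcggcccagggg
KMT5C (chr19:55339626-55339875, plus strand): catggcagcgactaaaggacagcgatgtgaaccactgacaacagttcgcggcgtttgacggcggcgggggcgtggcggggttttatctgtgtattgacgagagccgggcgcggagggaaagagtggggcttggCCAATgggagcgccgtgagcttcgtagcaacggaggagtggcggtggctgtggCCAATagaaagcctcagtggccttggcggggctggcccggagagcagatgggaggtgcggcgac
The GC box stood in 24 of the 29 writer promoters and 11 of the 15 eraser promoters found in the table, and in 65.5% of 10749 promoters of tested genes. The CCAAT box stood in 7 writer and 6 eraser promoters (34.7% of all), and the E-box in 5 and 2 (8.62% of all). The shown promoters differ in these matches: KDM4D has 2 GC boxes and 1 CCAAT box, KMT5C has 2 CCAAT boxes and no GC box, NSD1 has 1 GC box and 1 E-box, and SETD2 has 1 GC box. A match is a description of these letters only. The core of the amino acid response element, TTGCATCA, was in none of the 44 writer and eraser promoters and in 0.409% of all, and the cAMP response element TGACGTCA was in that of SUV39H2 only, beside 2.74% of all.

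In MB468 at 12 h in Met-Hcy+ medium, most writers rose and the erasers split. Of the 31 writers tested, 22 rose and 4 fell, and their median log2 fold change was 0.57. Of the 15 erasers, 8 rose and 5 fell, with a median of 0.24. Over all genes tested, 70.8% were called (36.1% higher and 34.7% lower, adjusted p under 0.05), with a median of 0.01. Of the writers 83.9% were called and of the erasers 86.7%. All genes split almost evenly between higher and lower, and the writers called were mostly higher. Scaled on the spike-ins, 17 writers were higher and 4 lower, with 3 and 5 erasers, and the median of all genes was −0.23. With a spike-in factor as covariate, 8 erasers were higher and 3 lower.

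**Figure D1:**
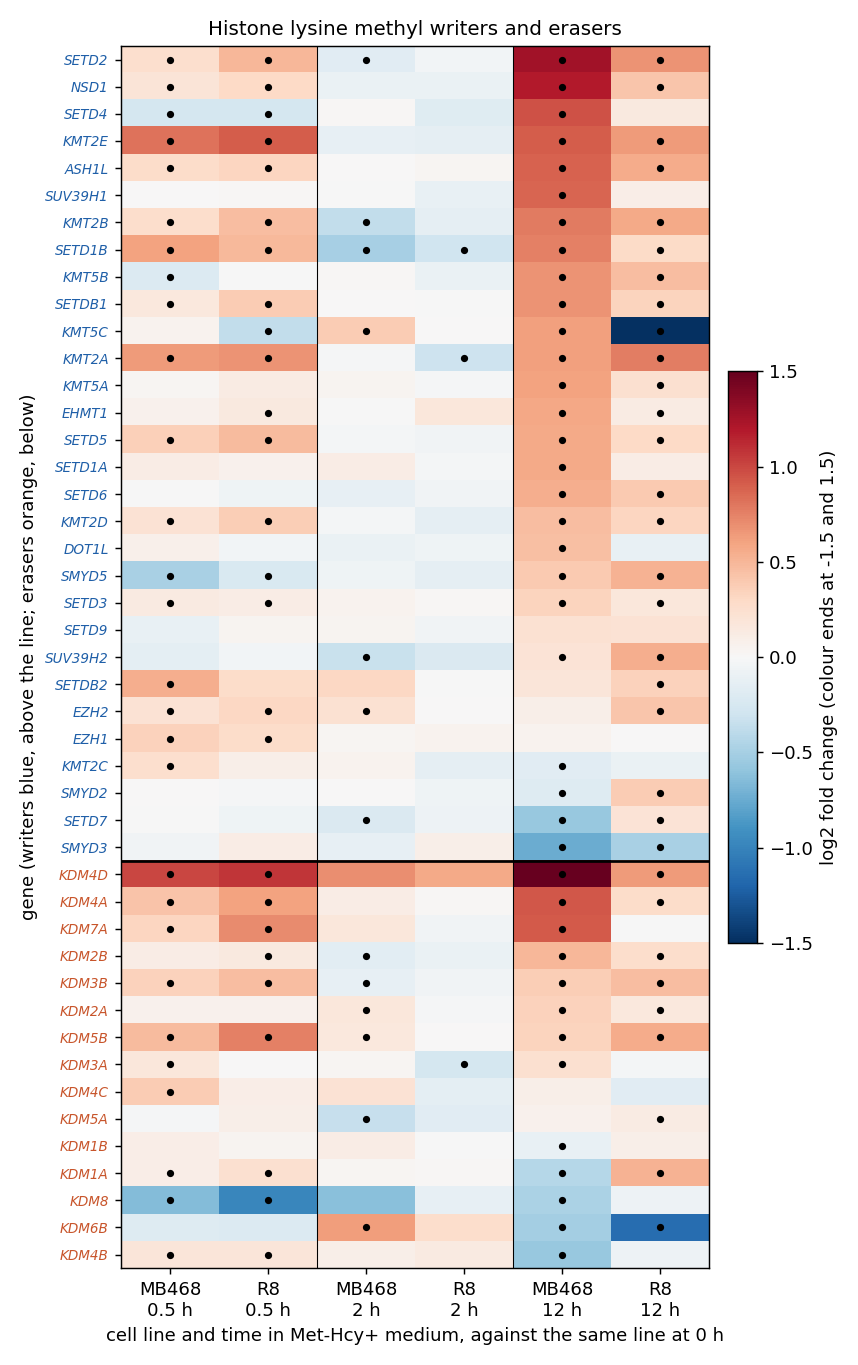
Log2 fold change of each writer (blue names) and eraser (orange names) against 0 h of the same line, by cell line and time in Met-Hcy+ medium, with EHMT2 left out. Dots mark calls at an adjusted p under 0.05 (edgeR). The colours at 0.5 h and 12 h are mostly red and those at 2 h mostly pale, and KMT5C at 12 h is red in MB468 and dark blue in R8.

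The 2 largest rises among the writers of MB468 at 12 h were those of H3K36 methyltransferases. SETD2, which makes trimethylated H3K36 behind elongating RNA polymerase II (chromosome 3, 47016428 to 47164113, minus strand), had 2162, 2205 and 2130 normalized counts in the MB468 libraries at 0 h and 5133, 5249 and 5186 at 12 h. All 3 libraries at 12 h lay far above those at 0 h, a 2.39-fold rise (log2 fold change 1.26 ± 0.04 SE, adjusted p = 1.22e-26). NSD1, which makes mono- and dimethylated H3K36 (chromosome 5, 177131830 to 177300213, plus strand), had 5369, 5712 and 5697 counts at 0 h and 13100, 12900 and 12360 at 12 h. It rose 2.29-fold (1.19 ± 0.04, adjusted p = 1.5e-26), also without overlap. ASH1L, the third H3K36 writer among the members that rose, went from 2574, 2697 and 2560 to 4937, 4881 and 4627 (0.88 ± 0.04). The H3K36 writers NSD2 and NSD3 were not among the members. Over all 24 libraries, NSD2 (WHSC1) lay between 4213 and 5715 normalized counts and NSD3 (WHSC1L1) between 1704 and 4418. SMYD2, which has been linked to H3K36 but also methylates other proteins, fell by 0.19 on the log2 scale.

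The other writers are given by the lysine they are known for. Of 8 H3K4 writers, KMT2A, KMT2B, KMT2D, SETD1A and SETD1B rose by 0.46 to 0.78 on the log2 scale, and these are the catalytic subunits of COMPASS complexes. KMT2C, another of these subunits, fell by 0.17, and so did SETD7 (−0.57) and SMYD3 (−0.75), which are no COMPASS subunits and methylate non-histone proteins as well. SETD7 had 3476, 3691 and 3791 normalized counts at 0 h and 2406, 2481 and 2506 at 12 h, and SMYD3 had 428, 437 and 422 and then 244, 279 and 247. Neither gene's groups overlapped. Of the H3K9 writers, SUV39H1 (0.88), SETDB1 (0.67), EHMT1 (0.58) and SUV39H2 (0.20) rose, and SETDB2 (0.18) was not called. SUV39H2 was no longer called after correction for GC content and length or without replicate 3 of MB468 at 0 h (0.12), and its sign turned under spike-in scaling.

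All 3 H4K20 writers, KMT5A (0.61), KMT5B (0.68) and KMT5C (0.62), rose in MB468, as did the H3K79 writer DOT1L (0.45). The H3K27 writers EZH1 (0.05 ± 0.08 SE) and EZH2 (0.08 ± 0.04), the catalytic subunits of Polycomb repressive complex PRC2, were not called. Of 7 SET proteins with no agreed histone site or with other main substrates, KMT2E, SETD3, SETD4, SETD5, SETD6 and SMYD5 rose. SETD4 was the largest of these rises (0.96 ± 0.07, adjusted p = 2.76e-16): its counts were 669, 660 and 655 at 0 h and 1344, 1294 and 1223 at 12 h. Left out of the writers, these 7 left 24, with a median close to that of the 31.

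Among the erasers of MB468, the largest rises at 12 h were those of 3 H3K9 JmjC enzymes, KDM4D, KDM4A and KDM7A. Of the same kind of enzyme, KDM4B had the largest fall of any eraser and KDM4C was not called. KDM4D, a small member of the KDM4 family (chromosome 11, 94973709 to 94999519, plus strand), had 20.6, 27.1 and 12.7 normalized counts at 0 h and 119, 120 and 107 at 12 h. It rose 5.45-fold (log2 fold change 2.45 ± 0.23 SE, adjusted p = 2.27e-12) from a low level. KDM4D shares sequence with KDM4E, to which no read was assigned in any library. How reads that match both genes were treated is not known here. KDM4A went from 2186, 2290 and 2338 to 4364, 4339 and 4240 (0.93 ± 0.04). KDM7A, which acts on H3K9 and H3K27, went from 439, 473 and 498 to 929, 896 and 829 (0.92 ± 0.08). In each of these 3 genes the libraries at 12 h lay above all those at 0 h. KDM2A (0.35), KDM2B (0.49), KDM3A (0.24), KDM3B (0.37) and the H3K4 demethylase KDM5B (0.33) rose less, and these 5 were not called under spike-in scaling.

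The erasers that fell in MB468 at 12 h were both flavin enzymes, KDM4B, KDM6B and KDM8. KDM1A (LSD1), which removes mono- and dimethyl groups from H3K4, had 4572, 4400 and 4299 counts at 0 h and 3224, 3283 and 3354 at 12 h (−0.43 ± 0.04, adjusted p = 7.99e-13). KDM4B had 964, 818 and 937 counts at 0 h and 623, 572 and 625 at 12 h (−0.57 ± 0.07). KDM6B (JMJD3), which removes methyl groups from H3K27, had 1568, 1499 and 1660 and then 1080, 1102 and 1130 (−0.51 ± 0.10). The groups did not overlap in any of these 3 genes. KDM1B fell by 0.11, a call lost without replicate 1 or 2 at 0 h or replicate 3 at 12 h. KDM8, at 88.8, 85.3 and 91.3 counts and then 75.8, 49.6 and 62.1, fell by 0.48 (adjusted p = 0.0356), a call that was lost when any of 5 libraries was left out, namely the 3 of MB468 at 0 h and replicates 2 and 3 at 12 h (values then from −0.51 to −0.36).

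Summed over members, writers outnumbered erasers most in MB468 at 12 h. The summed normalized count of the 31 writers divided by that of the 15 erasers was 2.01 ± 0.03 (SD, n = 3) in MB468 at 0 h, 2.02 ± 0.05 at 0.5 h, 1.83 ± 0.08 at 2 h and 2.63 ± 0.05 at 12 h. The 3 values at 12 h (2.58 to 2.67) lay above all other libraries. In R8 it was 2.04 ± 0.04 at 0 h, 2.00 ± 0.03 at 0.5 h, 1.96 ± 0.03 at 2 h and 2.18 ± 0.01 at 12 h, and the range at 12 h (2.18 to 2.19) lay above that at 0 h (2.01 to 2.09). Such a ratio within a library does not depend on how libraries are scaled, and long, abundant genes such as NSD1 weigh most in it. In MB468 the writer sum went from 52260 ± 294 to 79310 ± 1320 and the eraser sum from 26060 ± 311 to 30180 ± 19.3.

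**Figure D2:**
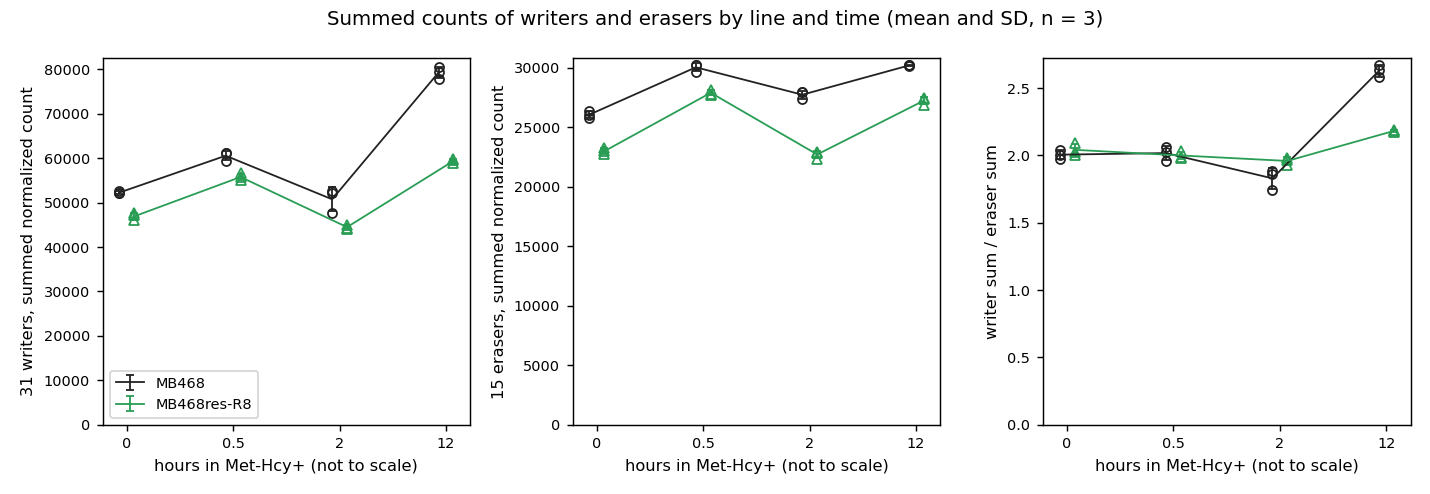
Summed normalized counts of the 31 writers (left) and 15 erasers (middle) and their ratio (right) by time in Met-Hcy+ medium, with points for libraries and lines with bars for the mean and SD of 3. The ratio is 2.63 in MB468 at 12 h and between 1.83 and 2.18 in the other groups.

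In R8 at 12 h, most writers also rose. Of 31 writers 21 rose and 2 fell, with a median log2 fold change of 0.32, and of 15 erasers 8 rose and 1 fell, with a median of 0.13. Of all genes, 61.3% were called (30.2% higher and 31.1% lower), with a median of −0.02. Spike-in scaling gave 15 writers higher and 2 lower, and 3 erasers higher and 1 lower. On that scaling the writer median was 0.34 in R8 and 0.33 in MB468, so the lower median of R8 under TMM scaling did not hold there. KMT2A, an H3K4 writer of the COMPASS family, had the largest rise of a writer: it had 2665, 2679 and 3094 normalized counts at 0 h and 4766, 4727 and 4818 at 12 h (0.77 ± 0.06, adjusted p = 5.91e-11). SETD2 rose from 1888, 1836 and 1965 to 3014, 3014 and 3025 (0.67 ± 0.04), and KMT2E, a SET protein thought to lack enzyme activity, from 1152, 1063 and 1276 to 1761, 1921 and 1736 (0.64 ± 0.06). None of these groups overlapped.

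Among the erasers of R8 at 12 h, KDM4D (0.64 ± 0.26), KDM5B (0.55 ± 0.04) and KDM1A (0.52 ± 0.04) gave the largest rises. KDM1A had 3683, 3334 and 3511 counts at 0 h and 5090, 4992 and 5008 at 12 h. KDM5B had 3079, 2921 and 3036 and then 4311, 4500 and 4443, also without overlap. The counts of KDM4D, 17.5, 28.0 and 20.9 and then 37.6, 25.1 and 38.7, overlapped, and its call (adjusted p = 0.0312) was lost without replicate 1 or 3 of either group, where the difference lay between 0.49 and 0.61. The falls were those of KMT5C (−1.53 ± 0.11), SMYD3 (−0.48 ± 0.08) and KDM6B (−1.14 ± 0.11). KDM6B went from 1282, 1339 and 1109 to 636, 467 and 581, a fall to 0.45 of its level at 0 h (adjusted p = 9.09e-09).

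The clearest opposite response belonged to KMT5C (SUV4-20H2), which adds further methyl groups to monomethylated H4K20 (chromosome 19, 55339853 to 55348121, plus strand). In MB468 it had 286, 249 and 242 normalized counts at 0 h and 414, 360 and 419 at 12 h, and it rose (0.62 ± 0.10, adjusted p = 4.72e-07). In R8 it had 365, 401 and 323 at 0 h and 140, 114 and 122 at 12 h, and it fell to 0.35 of its level (adjusted p = 2.07e-15). The 2 groups of each line did not overlap. The responses differed by −2.15 ± 0.15 on the log2 scale (adjusted p = 7.64e-16, contrast of the same edgeR model). Its paralog KMT5B, with the same known activity, rose in both lines, by 0.68 and 0.47, and so did KMT5A, which places the monomethyl group, by 0.61 and 0.23.

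**Figure D3:**
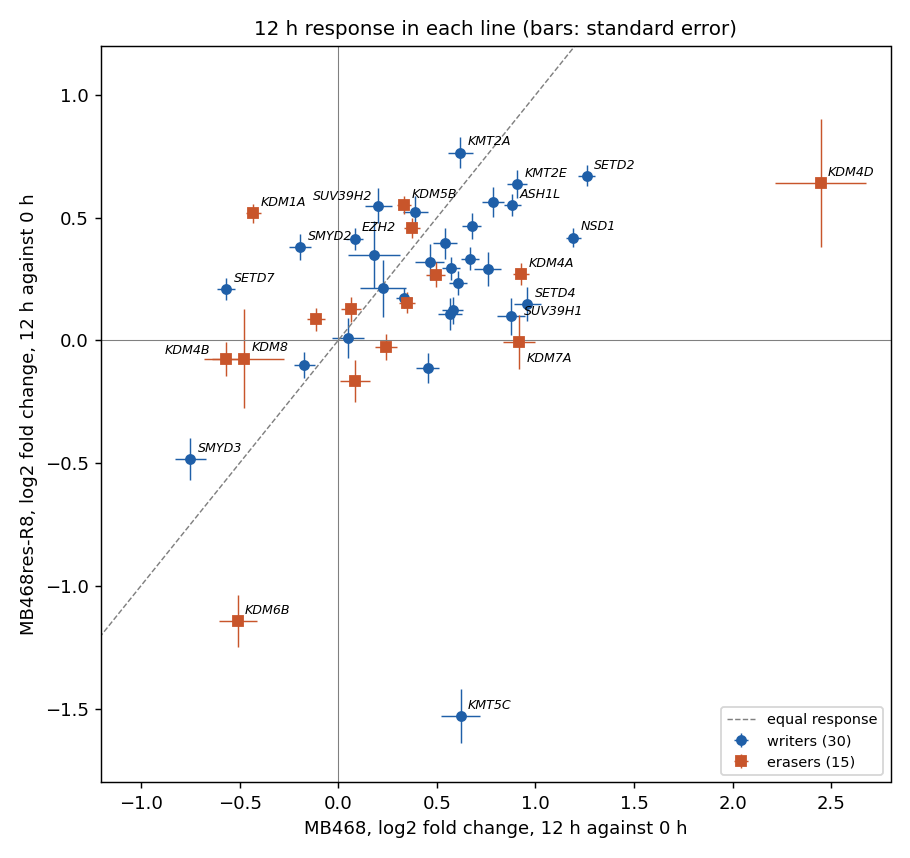
Log2 fold change at 12 h against 0 h in MB468 (horizontal) and R8 (vertical) for 30 writers (EHMT2 left out) and 15 erasers, with standard errors and a dashed line of equal response. With TMM scaling most points lie right of the dashed line, KMT5C lies at 0.62 and −1.53, and KDM1A, SETD7 and SMYD2 lie in the upper left.

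Tested directly, the 12 h response differed between the lines for 22 writers, 5 higher and 17 lower in R8, and for 11 erasers, 4 higher and 7 lower. These were 71% of the writers and 73.3% of the erasers, beside 56.5% of all genes (26.2% higher and 30.3% lower). The medians were −0.21 and −0.20, against −0.05 for all genes. This split depended on scaling: on the spike-ins, 5 writers were higher and 4 lower, with 4 and 2 erasers, and the median of all genes was 0.20. After correction for GC content and length, it was 8 and 15 writers, and 5 and 5 erasers. KMT5C, NSD1, SETD4, SUV39H1, KDM4D and KDM7A were lower in R8 on both scalings, and EZH2, SETD7, SMYD2, SMYD3, SUV39H2, KDM1A, KDM1B, KDM4B and KDM5B were higher on both. The SMYD3 call was lost without any 1 of 7 of the 12 libraries (then 0.23 to 0.28).

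A smaller rise in R8 than in MB468 was the commonest pattern under TMM scaling. For 12 writers (ASH1L, EHMT1, KMT2B, KMT2E, KMT5A, KMT5B, NSD1, SETD1B, SETD2, SETD3, SETD5 and SETDB1) and 4 erasers (KDM2A, KDM2B, KDM4A and KDM4D) the gene rose in both lines and less in R8. On the spike-ins, only NSD1 and KDM4D among them kept the call for the difference. NSD1 had 4932, 5075 and 5183 counts in R8 at 0 h and 6727, 6806 and 6767 at 12 h, a rise of 0.42 on the log2 scale, and the responses differed by −0.77 ± 0.06 (adjusted p = 3.79e-15). SETD2 differed by −0.59 ± 0.06, which was not called under spike-in scaling, as with KDM4A (−0.66 ± 0.06). The differences of KDM2A, KDM2B, KMT2B, KMT5B and SETD3, of −0.16 to −0.23, turned sign on the spike-ins. Each of these 5 calls was lost when 1 of several libraries was left out, replicate 3 of MB468 at 0 h among them in every case (then −0.16 to −0.12). The rise of EHMT1 in R8 was not called without replicate 1 or 3 of R8 at 0 h or at 12 h.

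Under TMM scaling, DOT1L, SETD1A, SETD4, SUV39H1, KDM3A and KDM7A rose in MB468, were not called in R8, and differed between the lines. Of these, only SETD4, SUV39H1 and KDM7A kept the call for the difference on the spike-ins. SUV39H1, the H3K9 trimethylase of heterochromatin, had 530, 495 and 565 counts in MB468 at 0 h and 978, 986 and 946 at 12 h, and in R8 534, 527 and 608 and then 630, 602 and 547 (difference −0.78 ± 0.10, adjusted p = 3.06e-08). KDM7A had 161, 172 and 153 counts in R8 at 0 h and 154, 139 and 190 at 12 h (difference −0.92 ± 0.14, adjusted p = 2.34e-07). The R8 groups overlapped in both genes.

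KDM1A, SETD7 and SMYD2 fell in MB468 and rose in R8. The responses differed by 0.95 ± 0.06 for KDM1A (adjusted p = 6.12e-18), 0.78 ± 0.06 for SETD7 (adjusted p = 1.05e-13) and 0.57 ± 0.08 for SMYD2 (adjusted p = 2.7e-08). SETD7 had 3990, 4188 and 4021 counts in R8 at 0 h and 4722, 4732 and 4651 at 12 h. SMYD2 had 1841, 1541 and 1858 and then 2218, 2329 and 2276, while in MB468 it went from 1430, 1319 and 1327 to 1141, 1244 and 1194. EZH2 rose in R8 only by the calls, from 1375, 1380 and 1433 to 1922, 1803 and 1849, and its response differed by 0.33 ± 0.06 (adjusted p = 1.55e-05). SUV39H2 differed by 0.35 ± 0.10 and KDM4B by 0.49 ± 0.10.

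The same comparison moved cell cycle genes. Of 28 such genes, 6 rose and 16 fell in MB468 at 12 h (median −0.14). In R8, 16 rose and 6 fell (median 0.20). In the difference between the lines, 24 were higher and 2 lower (median 0.40). Of all genes, 36.1% were higher and 34.7% lower in MB468, 30.2% and 31.1% in R8, and 26.2% and 30.3% in the difference. These counts are on TMM scaling only. On the spike-ins the median of all genes was −0.23 in MB468 and 0.20 in the difference. EZH2 and KMT5A are known to vary with the cell cycle, and the part of proliferation in the members' values was not tested.

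**Figure D4:**
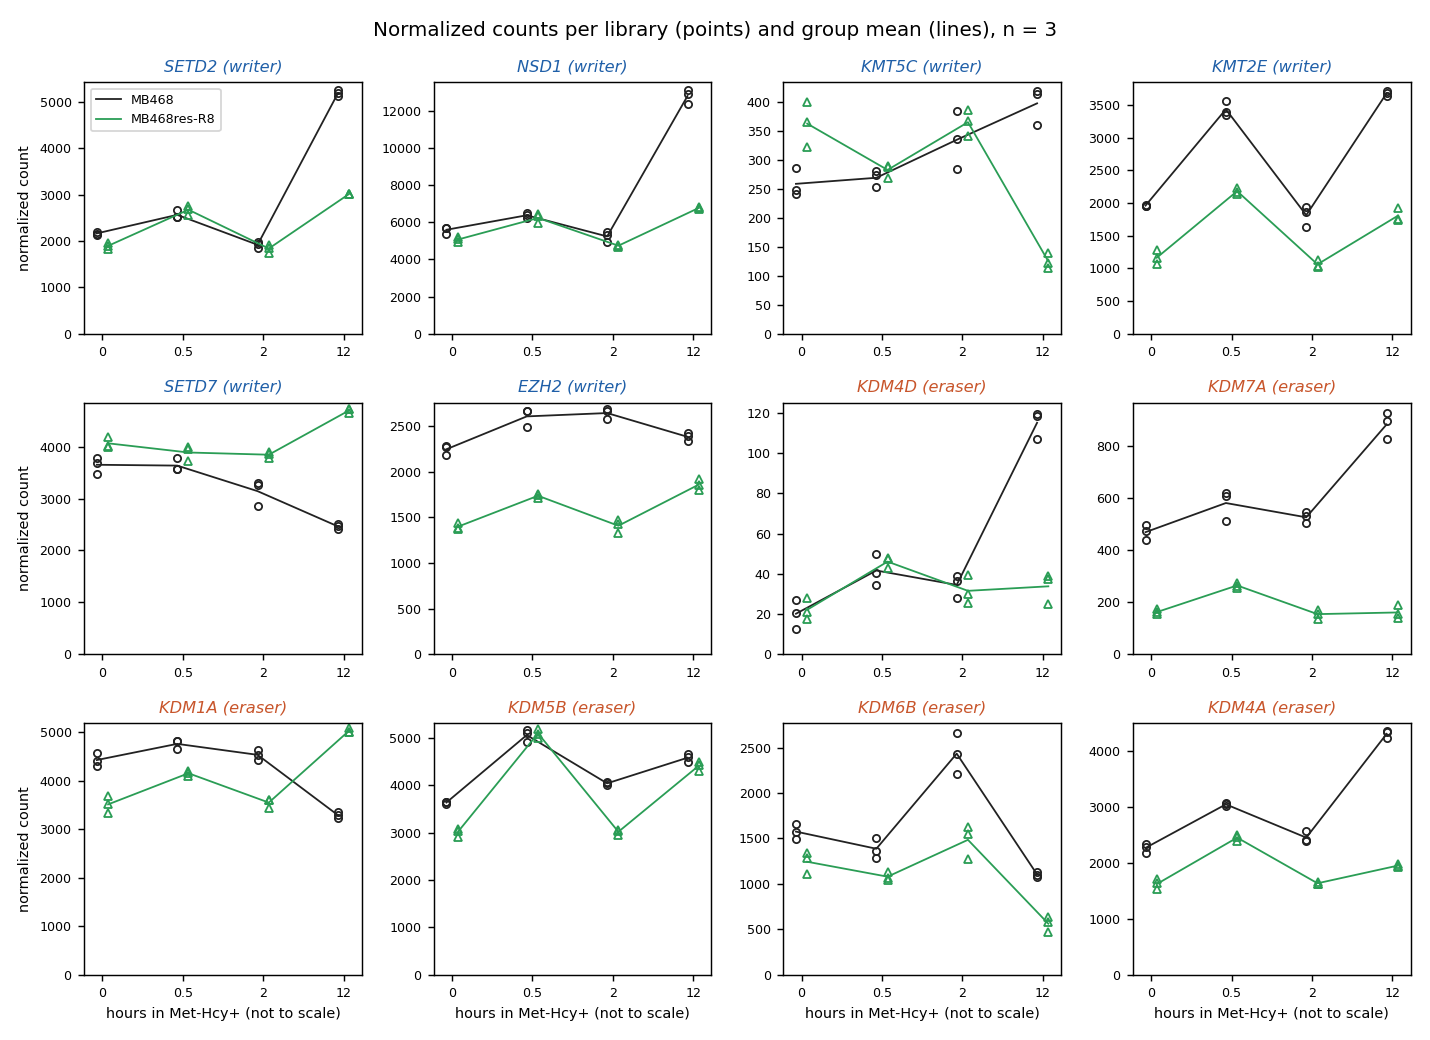
Normalized counts of 6 writers (blue titles) and 6 erasers (orange titles) in each library (circles MB468, triangles R8) with lines through the means of 3 libraries, by hours in Met-Hcy+ medium. SETD2, NSD1, KDM4D, KDM7A and KDM4A are highest in MB468 at 12 h, and KMT5C is lowest in R8 at 12 h. KDM5B is highest at 0.5 h in both lines, and KMT2E in R8 only. In MB468 the mean of KMT2E is 3434 at 0.5 h, falls at 2 h and is 3679 at 12 h.

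Partner proteins of the members and further genes of related families were counted for comparison. Of 11 COMPASS core and targeting subunits, 7 rose and 1 fell in MB468 at 12 h, led by NCOA6 (1.05) and PAXIP1 (0.49), and 5 rose and 1 fell in R8. Of 9 PRC2 partners tested, 1 rose and 6 fell in MB468, and 5 rose and 3 fell in R8. EED, the PRC2 subunit that reads H3K27 methylation, fell in MB468 (−0.62 ± 0.07) and rose in R8 (0.39 ± 0.07), with a difference of 1.01 ± 0.10 (adjusted p = 1.65e-11). JARID2, a PRC2 cofactor, fell by 1.68 in R8.

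Of 9 CoREST partners of KDM1A, 3 rose and 4 fell in MB468 and 4 rose and 2 fell in R8. RCOR3 rose in MB468 (1.08 ± 0.06), ZMYM3 fell in both lines (−0.84 and −0.47), and the deacetylase HDAC2 rose in R8 (0.44 ± 0.04). Of 9 H3K9 readers and partners of SETDB1 and EHMT enzymes, 2 rose and 5 fell in MB468, where CBX5 (HP1α, −0.92 ± 0.05) and the corepressor TRIM28 (−0.70 ± 0.04) gave the largest falls and WIZ the largest rise (0.66 ± 0.06). In R8, 6 rose and 3 fell. Of 9 further JmjC proteins outside the rule, 7 rose and 2 fell in MB468 and 4 rose and 1 fell in R8, beside 4 and 2, and 2 and 2, of 11 PRDM and SMYD genes. The background for these counts, which are on TMM scaling only, is the 70.8 and 61.3% called above.

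The rise had an early counterpart. At 0.5 h in Met-Hcy+ medium, 16 writers were higher and 3 lower in MB468 (median log2 fold change 0.13), with 9 and 1 erasers (median 0.17), and 33.9% of all genes were called (17.6% higher and 16.4% lower, median 0.01). In R8, 14 writers were higher and 3 lower (median 0.12), with 8 and 1 erasers (median 0.15), and 33.7% of all genes were called. The 16 writers of MB468 include EHMT2. Spike-in scaling left 3 writers higher and 4 lower with 1 and 2 erasers in MB468, and 11 and 0 with 5 and 1 in R8, so the direction in MB468 rests on the scaling and that in R8 does not.

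KMT2E and KDM5B had the smallest p at 0.5 h in both lines. KMT2E had 1953, 1974 and 1956 normalized counts in MB468 at 0 h and 3563, 3351 and 3388 at 0.5 h (0.81 ± 0.05, adjusted p = 5.35e-16), and in R8 2168, 2234 and 2143 at 0.5 h (0.91 ± 0.06). Both lines' libraries at 0.5 h lay above all those at 0 h of the same line. KDM5B, which removes methyl groups from H3K4, had 3652, 3607 and 3659 counts in MB468 at 0 h and 4923, 5175 and 5100 at 0.5 h (0.48 ± 0.04), a call lost under spike-in scaling, and 5009, 5094 and 5203 in R8 at 0.5 h (0.76 ± 0.04, adjusted p = 3.91e-20). KMT2E shares 1.15% of its exonic bases with KMT2E-AS1. That antisense RNA went from 34.1, 48.6 and 52.0 to 58.0, 64.8 and 94.3 in MB468 (0.66 ± 0.24, adjusted p = 0.0267, a call lost without replicate 1 at 0 h or replicate 3 at 0.5 h), and the library kit does not keep strand, so reads of such a pair cannot be told apart where they overlap.

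KMT2A (0.64 in MB468 and 0.68 in R8), SETD1B (0.60 and 0.49) and KDM4D (1.01 and 1.08) also rose in both lines at 0.5 h. KDM4D had 49.8, 34.7 and 40.4 counts in MB468 at 0.5 h and 48.0, 47.2 and 43.0 in R8, above the 0 h libraries of each line. Few members fell: in MB468 SMYD5 (−0.48 ± 0.07), SETD4 (−0.27), KMT5B (−0.20) and KDM8 (−0.66), and in R8 KDM8 (−0.98 ± 0.22), KMT5C (−0.36), SETD4 (−0.26) and SMYD5 (−0.23). KDM8, a JmjC protein first described as an H3K36 demethylase, had 56.7, 49.6 and 33.2 counts in R8 at 0.5 h against 76.9, 96.2 and 109 at 0 h. Its MB468 call was lost without replicate 1 or 3 at 0.5 h (−0.49 and −0.56).

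Only 2 members responded differently between the lines at 0.5 h under TMM scaling, beside 2.9% of all genes (1.2% higher and 1.7% lower). KDM5B (0.28 ± 0.05, adjusted p = 0.000461) and SETD2 (0.25 ± 0.06, adjusted p = 0.0107) rose more in R8. Both calls were lost under spike-in scaling, where the differences were larger (0.54 and 0.51) and the median of all genes was 0.26.

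By 2 h most of these rises had gone. Against 0.5 h, a comparison added after the data were seen, 14 writers fell and 4 rose in MB468, with 6 and 1 erasers (32.7% of all genes called, median −0.01). In R8, 14 writers fell and 1 rose, with 9 and 2 erasers (35.3% of all genes, median 0.01). On the spike-ins 16 writers fell and 0 rose in MB468, and with DESeq2's size factors 5 erasers fell and 2 rose. KMT2E had 1870, 1947 and 1626 counts in MB468 at 2 h and 1038, 1025 and 1124 in R8, falls of 0.93 and 1.04 on the log2 scale from 0.5 h. SETD1B went in MB468 from 1451, 1359 and 1587 at 0.5 h to 749, 688 and 615 at 2 h (−1.10 ± 0.07), below its 980, 1006 and 888 at 0 h. KDM5B in R8 fell to 3068, 2959 and 3034 counts, within the range of its libraries at 0 h. In MB468 KDM5B had 4052, 4001 and 4082 counts at 2 h, still above all its libraries at 0 h (0.15 ± 0.04 against 0 h, adjusted p = 0.00258), and that sign turned on the spike-ins (−0.27).

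KDM6B moved the other way. In MB468 it had 1367, 1283 and 1510 counts at 0.5 h and 2660, 2431 and 2212 at 2 h (0.82 ± 0.10, adjusted p = 9.46e-07), above all libraries at 0 h (0.63 ± 0.10, adjusted p = 5.76e-05, a call that was lost on the spike-ins). At 12 h it had 1080, 1102 and 1130. In R8 it had 1126, 1043 and 1068 counts at 0.5 h and 1550, 1631 and 1274 at 2 h (0.47 ± 0.10, adjusted p = 0.000747). Against its 1282, 1339 and 1109 counts in R8 at 0 h, KDM6B was not called at 2 h, and these groups overlapped.

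Against 0 h and under TMM scaling, fewer members were called at 2 h than at 0.5 h or 12 h. In MB468, 2 writers were higher and 5 lower and 3 erasers higher and 3 lower. These were 22.6% of the writers and 40% of the erasers, beside 16.3% of all genes (8.88% higher and 7.47% lower). Without the RN7SK-rich library, 9 writers and 5 erasers were called. SETD1B (−0.49 ± 0.08) and KDM5A (−0.34 ± 0.05) were the falls with the smallest p, and EZH2 rose by 0.23 ± 0.04, from 2284, 2272 and 2180 to 2665, 2687 and 2574. Spike-in scaling left 0 writers higher and 27 lower with 0 and 9 erasers, and turned the sign of EZH2, while the median of all genes was −0.42. In R8, KMT2A and SETD1B fell (−0.31 and −0.30) and so did KDM3A (−0.27 ± 0.06), beside 4.37% of all genes (2.52% higher and 1.85% lower), and all 3 calls were lost without replicate 2 of R8 at 2 h (values then −0.25, −0.23 and −0.21). After correction for GC content and length, 1 writer was higher and 3 lower in R8, with 1 and 2 erasers, and on the spike-ins none was called. The 2 h responses differed between the lines for EZH2 (−0.22 ± 0.06, adjusted p = 0.0276) and KDM3A (−0.30 ± 0.08, adjusted p = 0.0178), beside 5.07% of all genes, and both signs turned on the spike-ins, where KMT2B was the 1 writer called, higher in R8 (0.60). The EZH2 call was lost without replicate 3 of either line at 0 h (−0.20 in MB468 and −0.21 in R8) or replicate 2 of either line at 2 h (−0.21 and −0.18). The KDM3A call was lost without replicate 2 of MB468 at 0 h (−0.27), replicate 3 of R8 at 0 h (−0.24) or replicate 2 of R8 at 2 h (−0.24).

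In Met+ medium, before the switch, 16 writers were lower and 5 higher in R8 than in MB468, and 8 erasers were lower and 2 higher, beside 53.5% of all genes called (26.4% higher and 27.1% lower). The median log2 differences were −0.18 and −0.22, against 0.00 for all genes. On the spike-ins, 23 writers and 11 erasers were lower and none higher, with a median of −0.31 over all genes. KDM7A differed most among the members tested: it had 439, 473 and 498 normalized counts in MB468 and 161, 172 and 153 in R8, 0.35 of the MB468 level (−1.53 ± 0.10, adjusted p = 5.91e-17). KMT2E was at 0.59 of its MB468 level (−0.76 ± 0.06, adjusted p = 8.41e-15). EZH2, with 2284, 2272 and 2180 counts in MB468 and 1375, 1380 and 1433 in R8, was at 0.62 (−0.69 ± 0.04, adjusted p = 1.2e-16). The groups did not overlap in any of these genes.

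KMT2B (−0.51 ± 0.06), KDM4A (−0.49 ± 0.04), SMYD3 (−0.48 ± 0.08) and KDM4C (−0.46 ± 0.08) followed among the lower members at 0 h. The higher ones were KMT5C (0.48 ± 0.10), SMYD2 (0.36 ± 0.05), SETD7 (0.16 ± 0.04), SETD3 (0.13), KMT2C (0.12), KDM3A (0.26 ± 0.06) and KDM2A (0.18 ± 0.04). On the spike-ins, KMT5C (0.17) and SMYD2 (0.05) were not called, and SETD7 (−0.15), SETD3 (−0.18), KMT2C (−0.19), KDM3A (−0.05) and KDM2A (−0.14) turned sign. Parts of KMT2C are copied in other genes of the genome, so its counts are uncertain, and its call was lost without any 1 of 5 of the 6 libraries (0.10 to 0.13).

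At 12 h, the writers EHMT2, EZH1 and SETD9 and the eraser KDM4C were called in neither line nor in the difference between them, and the same held for both antisense RNAs. EZH1, an alternative catalytic subunit of PRC2, had 417, 403 and 401 normalized counts in MB468 at 0 h and 439, 405 and 419 at 12 h, and in R8 347, 408 and 391 and then 380, 407 and 365. The groups overlapped in both lines. KDM4A-AS1 lay between 3.42 and 20.6 counts over all libraries and was called in no comparison.

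Some members share exonic bases with other genes, which limits their counts where the library keeps no strand. KDM4A shares 9.12% of its exonic bases with KDM4A-AS1 and 40.2% with a gene model on its own strand, SETD6 shares 17.5% with CNOT1, and SUV39H1 shares 21.2% with an antisense RNA. The part of these partners in the members' counts was not tested.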

How the data were processed

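RNA of 24 samples (2 cell lines, 4 times, 3 libraries each) was sequenced by the authors as poly(A) libraries with spike-in RNAs. The authors aligned the single-end reads with HISAT2 2.1.0 and counted them per gene with featureCounts (Subread 1.5.3), and the deposited counts are raw whole numbers. The strand setting of the counting is not given in the sources used here. A normalized table and the authors' table of fold changes, standard errors, statistics, p-values and adjusted p-values were also deposited and were not used. All per-sample columns of the count table were mapped by name.

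Counts were tested with edgeR 4.0.16 in R 4.3.3 by the quasi-likelihood test in 1 model of 8 group means, with TMM scaling and filterByExpr (minimum count 10, minimum total 15), on 14741 genes, with Benjamini-Hochberg adjustment over all of them and a call at an adjusted p of 0.05. Levels per kilobase used the joined length of all exons annotated for a gene in GENCODE release 44. Alternatives were spike-in totals as library sizes, DESeq2 1.42.0 size factors or its Wald test, a spike-in covariate, other filters, a stricter threshold, only the groups compared, correction for GC content and length, the replicate block, writers without other SET proteins, and each library left out. The 2 h against 0.5 h comparisons and the narrower writer list were chosen after seeing the data.

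Members and lists were chosen with earlier results of these data known. Any member may be named. Per-library values were given mainly for 2 kinds of members. At 0 h, at 12 h and in the 12 h line difference, these were the 3 called writers and 3 called erasers with the largest change in each direction. At 0.5 h and 2 h, they were the 2 called members per direction with the smallest p. Some of these have log2 values only, and further members were shown to complete a comparison. Partner genes were named for the largest changes or where a sentence on their complex turned on them. Counts were simulated for MB468 at 12 h over 14491 genes with 200 changed. Of these, 96% of 1.5-fold and 99% of 2-fold changes were recovered, and 3.94% of calls were false. The changed genes were well counted and split evenly between rises and falls. These rates do not carry over to the real comparison, where 70.8% of genes were called, nor to members with few counts.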

Additional observations from a re-analysis of the deposited data

Results flagged for a closer look

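The members given here drew attention because the test of the difference between the lines, R8 response minus MB468 response on the log2 scale, itself passed an adjusted p of 0.05 (edgeR's quasi-likelihood test). With 3 libraries per group, no sample was tested for standing apart from its group. At 0.5 h these were SETD2 (0.252) and KDM5B (0.283), and at 2 h they were KDM3A (−0.296) and EZH2 (−0.223). At 12 h, the R8 response was the lower one for KMT5C (−2.15), KDM4D (−1.81), KDM7A (−0.923), SETD4 (−0.812), SUV39H1 (−0.78), NSD1 (−0.774), KDM4A (−0.657), KDM6B (−0.634), SETD2 (−0.588), DOT1L (−0.566), SETD1B (−0.466), SETD1A (−0.46), EHMT1 (−0.458), KMT5A (−0.373), SETDB1 (−0.336), ASH1L (−0.329), SETD5 (−0.278), KMT2E (−0.272), KDM3A (−0.269), KDM2B (−0.226), KMT2B (−0.221), KMT5B (−0.21), KDM2A (−0.195) and SETD3 (−0.161). It was the higher one for KDM1B (0.199), KDM5B (0.218), SMYD3 (0.267), EZH2 (0.332), SUV39H2 (0.345), KDM4B (0.495), SMYD2 (0.571), SETD7 (0.776) and KDM1A (0.948). At 12 h under spike-in scaling, the calls below 0 that held were those of KMT5C, NSD1, SETD4, SUV39H1, KDM4D and KDM7A, and all those above 0 held.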

How the results depend on the processing

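With spike-in totals as library sizes, the number called was 7 for writers and 3 for erasers in MB468 at 0.5 h, 11 for writers in R8 at 0.5 h, 27 for writers in MB468 at 2 h, 0 for writers and 0 for erasers in R8 at 2 h, 8 for erasers in MB468 at 12 h, 4 for erasers in R8 at 12 h, 0 for writers and 0 for erasers in the 0.5 h line difference, 0 for erasers in the 2 h line difference, 9 for writers and 6 for erasers in the 12 h line difference. With spike-in totals as library sizes, the median log2 fold change was −0.48 for writers and −0.53 for erasers in R8 against MB468 at 0 h, −0.084 for writers and −0.043 for erasers in MB468 at 0.5 h, 0.17 for writers in R8 at 0.5 h, −0.43 for writers and −0.31 for erasers in MB468 at 2 h, −0.11 for writers in R8 at 2 h, 0.33 for writers and 0.0085 for erasers in MB468 at 12 h, 0.30 for writers and 0.30 for erasers in the 0.5 h line difference, 0.34 for writers and 0.26 for erasers in the 2 h line difference, 0.042 for writers and 0.062 for erasers in the 12 h line difference, −0.38 for writers and −0.37 for erasers in MB468 at 2 h against 0.5 h, −0.26 for writers and −0.34 for erasers in R8 at 2 h against 0.5 h. With correction for GC content and length, the number called was 4 for writers and 3 for erasers in R8 at 2 h, 3 for writers in the 0.5 h line difference, 3 for erasers in the 2 h line difference. With correction for GC content and length, the median log2 fold change was 0.17 for writers in R8 at 0.5 h, 0.17 for erasers in MB468 at 12 h, 0.39 for writers and 0.23 for erasers in R8 at 12 h, −0.058 for writers and −0.074 for erasers in the 12 h line difference, −0.11 for erasers in MB468 at 2 h against 0.5 h, −0.21 for writers and −0.18 for erasers in R8 at 2 h against 0.5 h. With at least 10 counts in every library, the number called was 2 for erasers in R8 at 2 h. With at least 10 counts in every library, the median log2 fold change was 0.13 for erasers in MB468 at 0.5 h, 0.14 for erasers in MB468 at 12 h, −0.064 for erasers in the 12 h line difference, −0.14 for writers in R8 at 2 h against 0.5 h. At an adjusted p of 0.01, the number called was 6 for erasers in MB468 at 0.5 h, 0 for writers in the 0.5 h line difference, 0 for writers and 0 for erasers in the 2 h line difference. With no low-count filter, the number called was 2 for erasers in R8 at 2 h, 2 for writers in the 0.5 h line difference, 2 for writers and 2 for erasers in the 2 h line difference. With the DESeq2 Wald test, the number called was 2 for erasers in R8 at 2 h, 2 for writers in the 0.5 h line difference, 2 for writers and 2 for erasers in the 2 h line difference. With only the groups compared in the fit, the number called was 2 for writers in the 0.5 h line difference, 0 for writers and 0 for erasers in the 2 h line difference. Without the other SET proteins, an alternative added after the data were seen, the median log2 fold change was 0.17 for writers in MB468 at 0.5 h, 0.21 for writers in R8 at 0.5 h, −0.22 for writers in R8 at 2 h against 0.5 h. With DESeq2's size factors, the number called was 2 for erasers in R8 at 2 h. With a spike-in factor as covariate, the number called was 2 for erasers in the 2 h line difference. The sign turned on the spike-ins for KDM2A (−0.14, R8 against MB468 at 0 h), KDM3A (−0.046, R8 against MB468 at 0 h), SETD7 (−0.15, R8 against MB468 at 0 h), EZH2 (−0.19, MB468 at 2 h), EZH2 (0.15, the 2 h line difference), KDM3A (0.078, the 2 h line difference). The cause of these moves was not tested.

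Leaving out each library in turn gave −0.18 to −0.15 for the median of writers in R8 against MB468 at 0 h, 0.11 to 0.19 for the median of erasers in MB468 at 0.5 h, 0.0997 to 0.13 for the median of writers in R8 at 0.5 h, 0 to 3 for the number of writers called in R8 at 2 h, −0.096 to −0.059 for the median of writers in R8 at 2 h, 0 to 3 for the number of erasers called in R8 at 2 h, 1 to 2 for the number of writers called in the 0.5 h line difference, 0.038 to 0.094 for the median of writers in the 0.5 h line difference, 0 to 3 for the number of writers called in the 2 h line difference, 0 to 2 for the number of erasers called in the 2 h line difference, −0.24 to −0.12 for the median of writers in the 12 h line difference, −0.18 to −0.097 for the median of writers in MB468 at 2 h against 0.5 h, −0.20 to −0.14 for the median of writers in R8 at 2 h against 0.5 h. In the other comparisons of this kind the counts stayed within 1.5 times and the medians within 1 SD.

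Mean correlations of same-numbered deviations, over 6441 genes, lay between −0.23 and 0.275, depending on the comparison. The highest was that of R8 at 2 h against 0 h, where libraries of other numbers had a mean of −0.138. Whether the replicate numbers pair the samples is not settled by these values. With the replicate number as a block, 26 writers and 13 erasers were called in MB468 at 12 h, 22 and 9 in R8 at 12 h and 21 and 11 in the 12 h line difference, and no count moved by more than 1.5 times. EHMT2 at 0.5 h in MB468, KDM3A in MB468 at 2 h against 0.5 h, EHMT1 in R8 at 12 h and SMYD3 in the 12 h line difference lost their calls in that fit.

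Of the tests on single named members, 667 kept direction and call over the alternatives without left-out libraries, 24 lost the call and 6 reversed, and 498 kept them and 18 lost the call when a library was left out. With 3 libraries per group, small differences are limited by depth most in KDM4D, KDM8 and the antisense RNAs, which have few counts. Which scaling is right cannot be read from the counts: TMM assumes that most genes are unchanged, and the spike-in totals vary with how much spike-in RNA was added to each library. The comparisons of 2 h with 0.5 h were not among those planned. The lengths and GC content come from the annotation, and EHMT2 rests on a region with few counts.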

Other observations

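Among the genes that share a family with the members but stand under older symbols, WHSC1 (NSD2) lay between 4213 and 5715 normalized counts over the 24 libraries (median 4775) and WHSC1L1 (NSD3) between 1704 and 4418 (median 2280).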
